A study of Canis lupus familiaris with 34 samples.

Results

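Collagen chains are the subunits of the triple-helical proteins that make up most of the extracellular matrix. The chains were taken as every gene symbol in the platform annotation written as COL, digits, A, digits, which gave 36 genes with 97 probe sets, of 15115 genes with a probe set of a single symbol. A probe set was kept where it stood over log2 5 on at least 3 arrays. By this filter 16 chains with 39 probe sets were kept, of 7849 genes in the whole series, and the other 20 chains had no kept probe set. Sorted by how they assemble, the 16 comprised 7 of 10 fibrillar chains (COL1A1, COL1A2, COL2A1, COL3A1, COL5A1, COL5A2, COL27A1), 2 of 6 basement membrane chains (COL4A1, COL4A2), 3 of 8 fibril-associated or FACIT chains (COL12A1, COL14A1, COL16A1), 2 of 3 beaded filament chains (COL6A1, COL6A3), the multiplexin COL15A1 and 1 of 4 transmembrane chains (COL13A1). Neither network chain, COL8A2 nor COL10A1, was kept, so the network class had no chain that could be compared. COL7A1 and COL26A1 were not kept either.

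Collagen chains fold in the endoplasmic reticulum into triple helices of like or unlike chains, are exported, trimmed of their end peptides and crosslinked. Types I, III and V build the banded fibres of connective tissue, and type I, made of COL1A1 and COL1A2, is the main protein of bone matrix. Type II is typical of cartilage, type IV forms the sheets of basement membranes under endothelium and epithelium, type VI forms beaded microfilaments near cells, and FACIT chains bind to the surface of fibrils. Osteosarcoma, a malignant bone tumour common in large dogs, is recognised by tumour cells that lay down collagen-rich osteoid.

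The study profiled canine osteosarcoma cell lines and tumour tissue on Affymetrix Canine_2 arrays, with 34 arrays from 31 dogs. Lines from primary tumours took 25 arrays of 24 dogs (13 arrays from males, 11 from females, 1 with no sex given, age at diagnosis 2.0 to 11.19, 10 Rottweiler and 8 Golden Retriever arrays, 11 with the treatment label SOC, 5 with no treatment label). Lines from metastases took 3 arrays (2 males and 1 female, age 2.39 to 6.31, 2 of them Rottweilers, 1 labelled SOC and 1 with no treatment label), and snap-frozen primary tumours took 6 (1 male and 5 females, age 2.67 to 11.91, 3 Golden Retrievers, 3 labelled SOC and 3 with no treatment label). Of the other primary line arrays 3 were labelled AMP, 2 PALL, 1 ABX and 3 SOC* (dogs that died before starting or before ending chemotherapy), and the other metastatic line PALL. None of these codes is spelled out, and the sources used here give no unit of age. Other breeds among primary lines were Saint Bernard, German Shepherd (once spelled German Shephard), Great Pyrenees, Mastiff and Alaskan Malamute, with 1 unknown. The other metastatic line was from a Rhodesian Ridgeback, and the other tissues from a Great Pyrenees, a Belgian tervuren and a Borzoi. Line RNA came from fresh or cryopreserved cultures, with no passage number given. Each metastatic line came from a dog of its own, and the primary lines came from separate dogs except for lines 19 and 22, both from dog 22, which were averaged to leave 24 primary lines. Values are log2 of GCRMA intensity, a background-corrected probe set brightness, and differences are log2 differences. Levels of unlike probe sets are not set against each other, since probes differ in how brightly they bind.

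Column medians (linear intensity) ran from 8.06 to 8.51 among primary lines, from 8.08 to 8.37 among metastatic lines and from 8.28 to 8.67 among tissues. The actin 3′ minus 5′ difference, which grows as RNA degrades, ran from -0.35 to 4.03 in primary lines, stood at 3.95, 0.65 and 0.63 in metastatic lines 1 to 3, and ran from 1.27 to 4.61 in tissues. Titles carried 1 of 3 prefixes whose meaning is not given, called title prefix 1 to 3 here. Title prefix 3 held all 6 tissues and only 2 primary line arrays (22 and 23), title prefix 2 held the 3 metastatic and 19 primary lines, and title prefix 1 the other 4. Calls of chains and of collagen pathway genes between tissues and primary lines are given with the prefix in the model too. In that model the line arrays 19 and 22 of dog 22 entered separately. Primary line 4 stood apart, with a median correlation to the other primary lines of 0.78, and its endothelial markers PECAM1 and EMCN both stood at 13.88. Of the other endothelial markers, VWF and TIE1 reached at most 3.56 and 2.31 in any primary line, line 4 included. Primary lines 5 and 9, of different dogs, correlated at 0.98.

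The study set lines against tissue. In limma 4 of the 16 chains (25%) were higher in tissues than in primary lines at an adjusted p under 0.05 and at least 2-fold: COL2A1, COL13A1, COL14A1 and COL16A1, and no chain was lower. Over all genes tested 14.6% passed in either direction and 9.06% were higher in tissues. COL2A1, which passed the filter through 3 tissues and no line, and COL13A1, which passed through 4 tissues and 1 line, had to differ to be measured at all, so the count is no support for a shift of the family. The type I chains COL1A1 and COL1A2, and COL3A1 of type III, differed by 0.18, 0.34 and 0.29, with no call. Differences were above 0 in 11 chains and below 0 in 5, with a median of 0.37 against 0.05 over all genes. In none of the 16 did every tissue exceed every primary line (1.34% of all genes), and in none did every tissue fall below every line (0.204%).

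**Figure D1:**
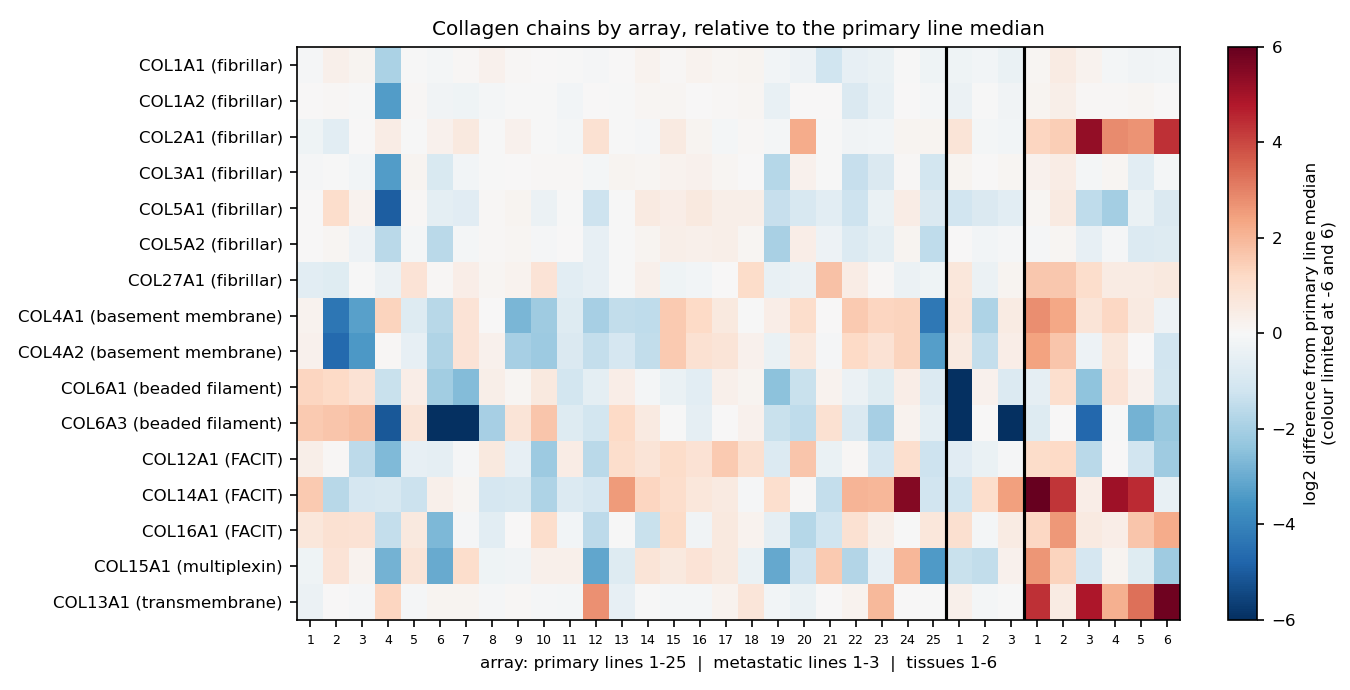
Heat map of the 16 kept collagen chains (rows, with assembly class) by array (columns: 25 primary line arrays, 3 metastatic lines, 6 tissues), coloured by the log2 difference from the primary line median, where lines 19 and 22 share dog 22. Tissues 3 and 6 are the most raised in COL2A1 and COL13A1, primary line 4 is low in the fibrillar chains of types I, III and V, and COL6A3 is very low in primary lines 6 and 7 and metastatic lines 1 and 3.

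Type II collagen, COL2A1, is the main fibrillar collagen of cartilage. Its levels in tissues 1 to 6 were 3.57, 3.72, 7.52, 5.12, 4.95 and 6.65, against 1.63 to 4.48 (median 2.27) in the 24 primary lines and 2.12, 2.16 and 3.05 in the metastatic lines, in rising order. Tissues 3 to 6 lay above every line, and tissues 1 and 2 lay above every primary line but line 20, whose donor also gave tissue 6. The difference was 2.82 (SE 0.36, 7.06-fold, adjusted p = 3.95e-07, limma). The fit shares 1 estimate of spread over the groups. The SD was 1.57 in tissues and 0.54 in primary lines, so the SE and p-value may overstate precision. Since no line exceeded log2 5, the fold depends on a near-background level and is a description. COL2A1 rested on 1 kept probe set.

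COL13A1 encodes a transmembrane collagen found at cell adhesion sites. It stood at 7.22, 3.31, 7.66, 4.97, 6.14 and 8.64 in tissues 1 to 6, and at 2.32 to 5.56 (median 2.82) in primary lines. Tissues 1, 3, 5 and 6 lay above every line, while 4 lines lay above tissue 2. The difference was 3.28 (SE 0.46, 9.68-fold from a near-background level, adjusted p = 1.95e-06, limma). Here too the SD was larger in tissues (1.95) than in primary lines (0.75), so the same limit on precision holds. In dog 23, whose tumour gave both a line and a tissue, COL13A1 went from 2.43 in line 20 to 8.64 in tissue 6, and in dog 22 from 2.84 in the line to 6.14 in tissue 5.

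The FACIT chains COL14A1 and COL16A1, which attach to the surface of fibrils, were also higher in tissues. COL14A1 stood at 11.12, 9.34, 5.45, 10.15, 9.57 and 4.63 in tissues 1 to 6, and at 3.23 to 10.58 (median 5.07) in primary lines. Only tissue 1 lay above every line, and tissues 3 and 6, the highest in COL2A1 and COL13A1, were the lowest in COL14A1. The highest line was line 24, and the next highest stood at 7.61. The difference was 3.14 (SE 0.83, 8.83-fold, adjusted p = 0.00624, limma). The SD was 2.67 in tissues and 1.69 in primary lines, with the same limit on precision. When fitted one by one, 4 of 5 kept COL14A1 probe sets were called, with differences from 0.31 to 3.44.

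COL16A1 stood at 10.48, 11.83, 9.81, 9.66, 10.92 and 11.46 in tissues 1 to 6, and at 6.56 to 10.41 (median 9.24) in primary lines. Tissues 1, 2, 5 and 6 lay above every line, and tissues 3 and 4 lay within the range of the lines. The difference was 1.60 (SE 0.43, 3.04-fold, adjusted p = 0.00656, limma). The other FACIT chain, COL12A1, did not pass: its difference was -0.33 (SE 0.52, adjusted p = 0.687), and its tissue values from 9.73 to 13.05 fell inside the line range of 9.21 to 13.53.

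Title prefix moved with these calls. With the prefix as a model term only COL2A1 was called (3.17, adjusted p = 0.00176), where 6.28% of all genes were. COL13A1 stood at 2.42 (adjusted p = 0.067), COL14A1 at 1.28 (adjusted p = 0.631) and COL16A1 at 0.82 (adjusted p = 0.54). In this model, here and below, the primary line side of the tissue difference rests on line arrays 22 and 23 alone. The 2 line arrays that shared the prefix of the tissues had COL14A1 at 7.12 and 7.07 and COL16A1 at 10.16 and 9.58. Within that prefix alone, with 2 lines against 6 tissues, 0 chains were called in limma, against 3.2% of all genes. An unadjusted p under 0.05 was found for 3 of 16 chains (COL1A2, COL2A1 and COL3A1) and for 1630 of 7849 genes.

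**Figure D2:**
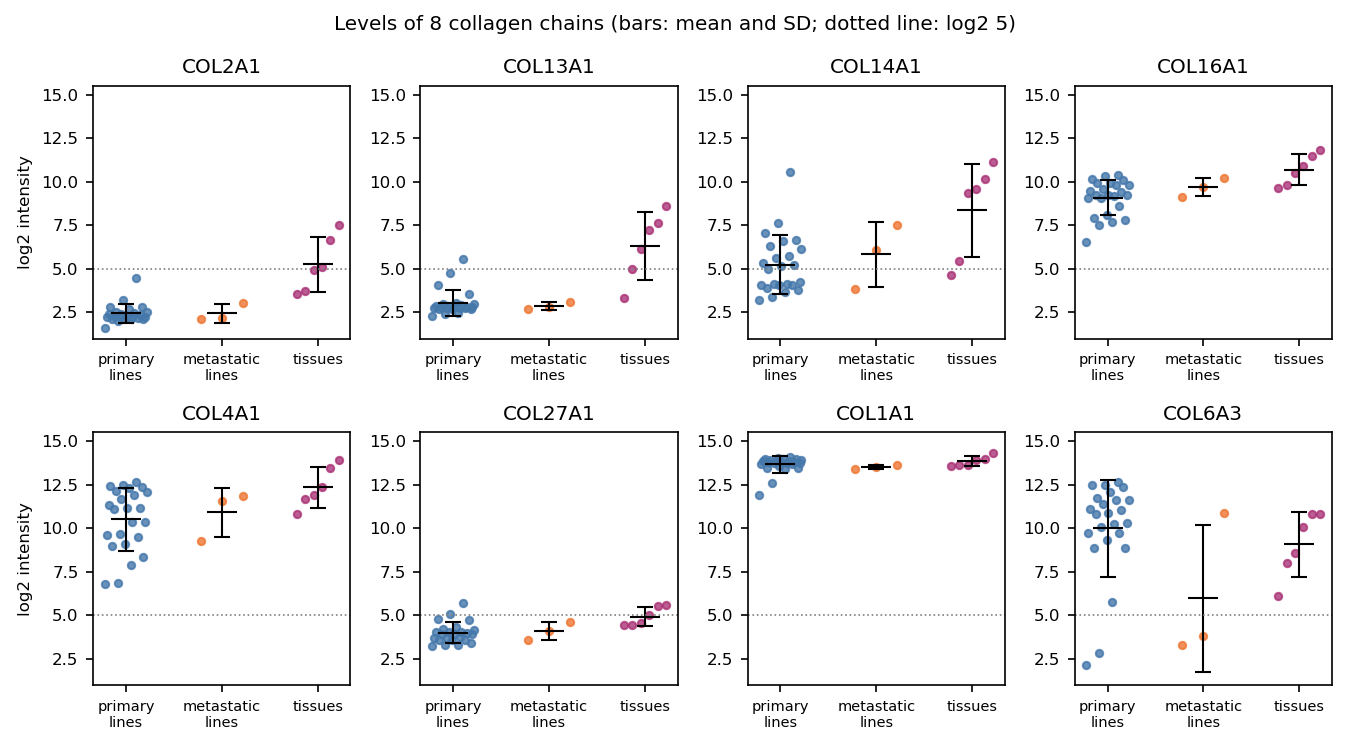
Log2 intensity of 8 collagen chains in 24 primary lines, 3 metastatic lines and 6 tissues, 1 point per line or tissue, with mean and SD as bars and log2 5 as a dotted line. COL2A1 and COL13A1 sit near background in nearly all lines, COL1A1 is tightly grouped but for 2 low primary lines, and COL6A3 splits the lines into many high and a few low values.

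Among the other fibrillar chains the levels in lines and tissues overlapped. COL1A1 stood at 13.91, 14.30, 13.99, 13.65, 13.56 and 13.65 in tissues 1 to 6, against 11.88 to 14.08 (median 13.79) in primary lines, a difference of 0.18 (SE 0.21, 95% interval -0.24 to 0.60, adjusted p = 0.57). COL1A2, its partner in type I collagen, stood at 14.54 to 14.85 in tissues and 11.13 to 14.63 in lines (difference 0.34, SE 0.28, adjusted p = 0.405). COL3A1, the chain of type III collagen, stood at 13.93 to 15.05 in tissues and 11.24 to 14.87 in lines (difference 0.29, SE 0.32, adjusted p = 0.56). These probe sets lie near the top of the intensity scale, where differences may be compressed, and whether they were was not tested. The other kept probe sets of COL1A1 gave 0.78 and 1.03, none of them called, and those of COL3A1 ran from -1.14 to 0.44.

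The type V chains, which start fibril assembly, gave -0.38 (SE 0.48, adjusted p = 0.61) for COL5A1 and -0.11 (SE 0.27, adjusted p = 0.811) for COL5A2. COL27A1, a fibrillar chain of developing cartilage, stood at 5.56, 5.57, 5.00, 4.42, 4.44 and 4.55 in tissues 1 to 6 and at 3.21 to 5.70 in lines. Every tissue thus lay inside the line range, and 4 lines exceeded the lowest tissue. Its difference of 0.92 (SE 0.26, adjusted p = 0.0111) passed the p threshold but not 2-fold, and it passed both without tissue 4 (1.02) or tissue 5 (1.01).

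COL27A1 had 4 more probe sets that the filter removed. On 2 of them tissue 2 alone stood far out, at 13.53 and 11.77, while the other tissues reached at most 5.54 and 3.10 and the primary lines at most 3.03 and 1.93. On the kept probe set tissues 1 and 2 stood at 5.56 and 5.57, on another both stood at 4.99, and on the last tissue 2 was below tissue 1 (4.12).

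**Figure D3:**
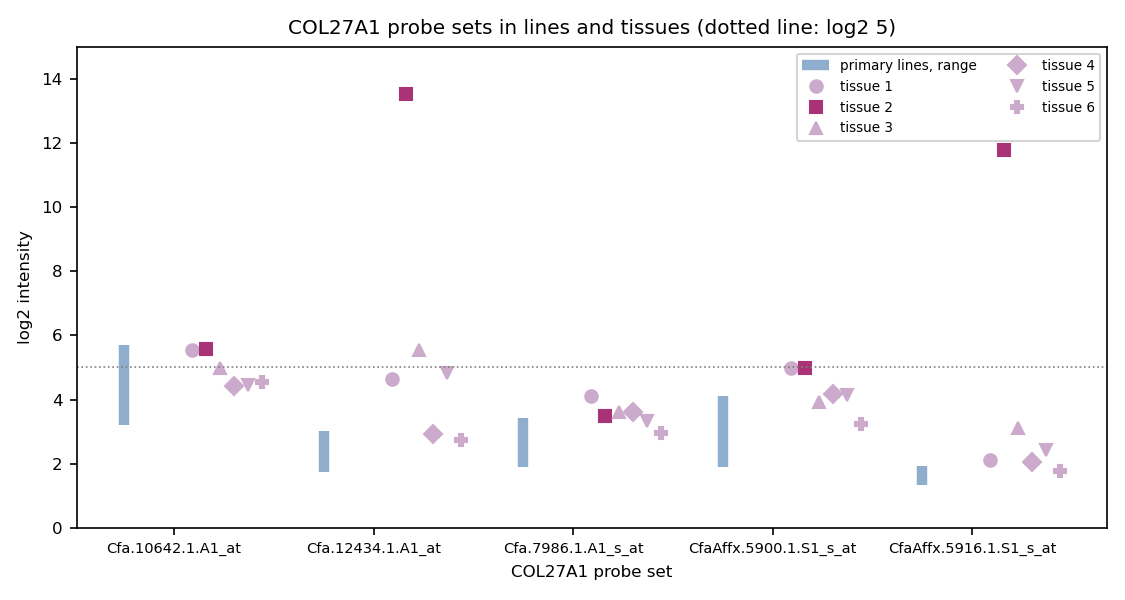
Log2 intensity of the 5 COL27A1 probe sets (horizontal axis), with the range over 24 primary lines as a bar and each tissue as a marker. Tissue 2 stands at 13.53 and 11.77 on 2 probe sets and beside the other tissues on the remaining 3.

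The basement membrane chains COL4A1 and COL4A2 were not called in tissues. COL4A1 stood at 13.93, 13.44, 11.89, 12.35, 11.68 and 10.80 in tissues 1 to 6, and at 6.79 to 12.68 (median 11.12) in primary lines. Tissues 1 and 2 lay above every line and the other 4 inside the line range. The difference was 1.84 (SE 0.75, 95% interval 0.32 to 3.35, adjusted p = 0.0719), and it was called when arrays were weighted by quality (2.14, adjusted p = 0.0414). COL4A2 gave 1.15 (SE 0.69, adjusted p = 0.236). When the model included title prefix, both differences were below 0 (-0.19 and -0.50), and in dogs 22 and 23 COL4A1 was lower in the tissue than in the line by -0.43 and -1.36.

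COL15A1, a multiplexin of vascular and muscle basement membranes, stood at 11.59, 10.32, 7.95, 9.13, 8.25 and 6.82 in tissues 1 to 6 and at 5.54 to 10.96 in lines. Its difference was 0.41 (SE 0.68, adjusted p = 0.707). As with both type IV chains, tissues 1 and 2 were the highest and tissue 6 the lowest. The type VI chains gave -0.04 (SE 0.65, adjusted p = 0.97) for COL6A1 and -0.93 (SE 1.22, adjusted p = 0.619) for COL6A3, and in both every tissue lay inside the line range.

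By class, the median tissue minus primary difference was 1.60 over 3 FACIT chains, 1.49 over 2 basement membrane chains, 0.29 over 7 fibrillar chains and -0.49 over 2 beaded filament chains, against 0.05 over all genes. The FACIT chains held 2 calls, the fibrillar chains 1 and the transmembrane class, with COL13A1 alone, 1. These medians rest on few chains and were not tested, and the sign of the basement membrane median turned (-0.34) with title prefix as a covariate.

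**Figure D4:**
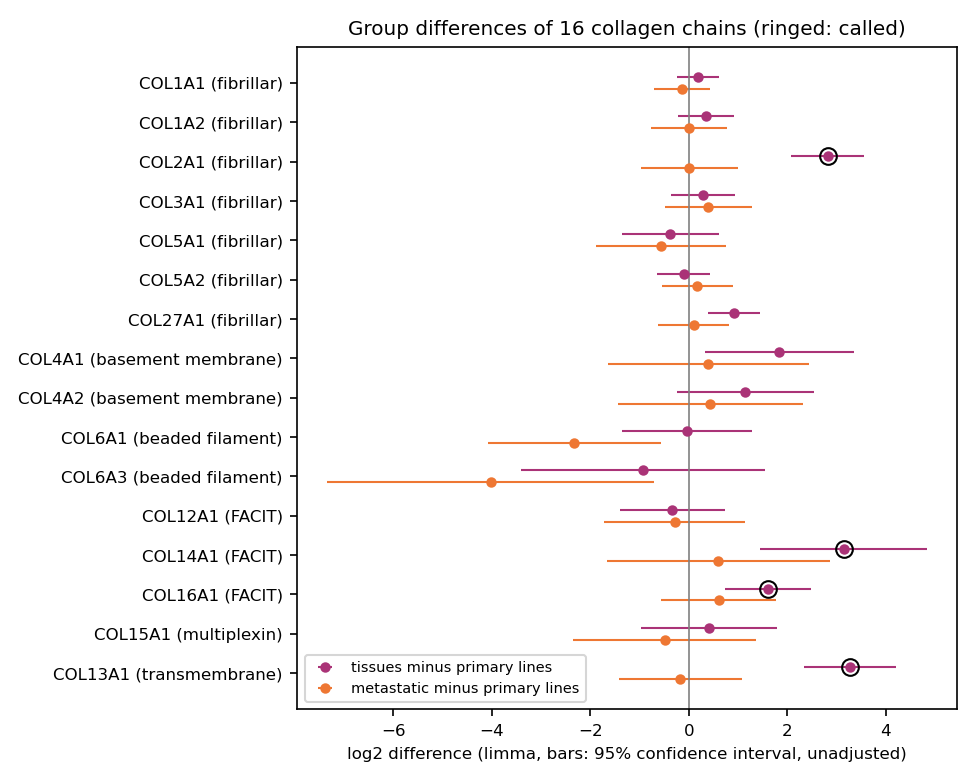
Log2 differences of the 16 chains with unadjusted 95% confidence intervals, tissues minus primary lines and metastatic minus primary lines, where ringed points were called. The 4 called chains all lie to the right for tissues, and COL6A1 and COL6A3 lie furthest to the left for metastatic lines without a call.

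Tissues hold cells other than tumour cells, and in such bulk samples fewer cells of a type and less RNA per cell cannot be told apart. Of the markers measured, 6 of 7 endothelial genes were higher in tissues (PECAM1 by 8.26, KDR by 5.87 and EMCN by 5.77), with a mean level of 2.77 to 8.61 in primary lines, where line 4 was the highest, and 10.46, 9.33, 7.49, 6.42, 7.01 and 6.64 in tissues 1 to 6. Tissues 1 and 2, the highest in these markers, were also the highest in COL4A1, COL4A2 and COL15A1. The same tissues were the highest in COL1A2, COL3A1, COL5A1, COL5A2, COL12A1 and COL27A1. Macrophage genes were higher for 11 of 11, where 9.06% of all genes were (LYZ by 9.89, LAPTM5 by 8.27, C1QA by 7.65), with mean levels of 2.21 to 4.62 in lines and 7.79 to 10.32 in tissues. Pericyte and smooth muscle genes were higher for 2 of 6 (RGS5 by 4.99, MCAM by 4.87) and lower for 1 (TAGLN, -2.29). The mean level of this list was also highest in tissues 1 and 2 (10.64 and 10.65), against 7.58 to 9.33 in the other tissues. Of the higher genes 10 of the macrophage list, 4 of the endothelial and 1 of the pericyte list were over log2 5 in fewer than 3 lines, so they passed the filter only with the tissues, and these counts are descriptions. The same held for 3 adipocyte genes and for IBSP.

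Osteoblast genes were higher in tissues for 5 of 7 (IBSP by 8.38, SPP1 by 7.38, ALPL by 6.69), against 9.06% of all genes. The mean level of this list was 7.99, 6.47, 10.02, 9.02, 8.88 and 10.35 in tissues 1 to 6 against 2.60 to 5.54 in primary lines. Tissues 3 and 6 thus led this list as they led COL2A1. Of the 24 primary lines IBSP was over log2 5 in 0, PTH1R in 3, and ALPL and BGLAP in 4 each. RUNX2 was over it in 5, SPP1 in 9 and DLX5 in 21. These counts depend on how brightly each probe set binds and are not set against each other or against a collagen chain. Cartilage genes were higher for 1 of 4, ACAN, the cartilage proteoglycan aggrecan (5.78), while HAPLN1 (-1.54) and SOX9 (0.64) did not pass. The mean level of the 4 was 3.23 to 9.52 in lines. In tissues 1 to 6 it was 8.95, 8.85, 6.25, 9.09, 7.74 and 7.82. Tissue 3, the highest in COL2A1, was thus the lowest in the cartilage list. Adipocyte genes were higher for 3 of 4 (CD36 by 6.44, LPL by 5.77, PPARG by 3.99; mean level 1.59 to 5.87 in lines and 5.07 to 8.48 in tissues) and epithelial genes for 0 of 2 (EPCAM at 1.08, KRT18 at 0.54; 1.91 to 8.24 in lines and 2.68 to 8.09 in tissues). The part of these cell types, and of the actin 3′ to 5′ difference, in the collagen results was not tested.

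Of 43 measured genes for enzymes, receptors and other proteins that handle collagen 9 were called between primary lines and tissues, 6 higher and 3 lower in tissues, where 14.6% of all genes were called. When the model included title prefix 4 were called, where 6.28% of all genes were. These were ITGA10, LOX and MMP9, of the 9, and CTSK, the collagen-degrading cathepsin K, which went from 0.26 (adjusted p = 0.615) to 2.61 (adjusted p = 7.21e-05). Of 16 measured genes of chain modification and folding 2 were higher in tissues: P3H1, a prolyl 3-hydroxylase (9.41 ± 0.77 SD, n = 24, in lines and 10.76 ± 0.64, n = 6, in tissues, adjusted p = 0.00415 in limma), and FKBP14, a prolyl isomerase (5.52 ± 1.25 and 7.24 ± 0.82, adjusted p = 0.0158). This share was near the 9.06% of all genes that were higher. When prefix entered the model neither was called: P3H1 stood at 1.40 (adjusted p = 0.13) and FKBP14 at 1.77 (adjusted p = 0.273). SERPINH1, the collagen chaperone HSP47, differed by 0.42 (SE 0.51, adjusted p = 0.583) and P4HA1, a prolyl 4-hydroxylase subunit, by -0.91 (SE 0.38, adjusted p = 0.0833). The median of this list was 0.03. None of the 8 measured genes of export and propeptide removal passed (median 0.40).

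Of 4 measured crosslinking enzymes 2 were lower in tissues and none higher (median -1.68), where 14.6% of all genes were called in either direction. Lysyl oxidase, LOX, stood at 10.44 ± 1.64 (SD, n = 24) in primary lines and 7.04 ± 1.23 (n = 6) in tissues, a difference of -3.41 (SE 0.68, adjusted p = 4.08e-04, limma). Its call held when the model included title prefix (-4.00, adjusted p = 0.0466). LOXL2 differed by -1.07 (SE 0.37, adjusted p = 0.0338), a call lost without tissue 3, 4, 5 or 6 and with prefix in the model (-0.24, adjusted p = 0.864).

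Among 7 measured collagen receptors ITGB1, the shared beta subunit of the collagen-binding integrins, was lower in tissues (11.41 ± 0.74 in lines and 9.49 ± 0.93 in tissues, adjusted p = 9.75e-05). That call was lost with prefix in the model (-1.21, adjusted p = 0.202). ITGA10, an alpha subunit of cartilage cells, was higher by 3.06 (SE 0.36, adjusted p = 6.83e-08), from 2.55 ± 0.46 in lines, near background. It was over log2 5 in 3 tissues and no line, so it had to differ to be measured, and its fold is a description. DDR2, a receptor tyrosine kinase for fibrillar collagen, differed by -0.30 (SE 0.62, adjusted p = 0.766), and the list median was -0.30.

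Where 9.06% of all genes were higher in tissues, 3 of 8 measured genes of collagen breakdown were (median 0.85). These were the collagenases MMP13 (4.95 ± 2.65 in lines and 12.74 ± 1.45 in tissues, adjusted p = 1.04e-06) and MMP1 (4.03, adjusted p = 0.0177) and the gelatinase MMP9 (2.61 ± 1.11 and 12.25 ± 1.46, adjusted p = 1.53e-16). The MMP1 call was lost without tissue 1, 3 or 6, and that of FKBP14 without tissue 6. With prefix in the model MMP9 was called (9.51, adjusted p = 4.14e-09), while MMP13 (4.99, adjusted p = 0.1) and MMP1 (1.28, adjusted p = 0.775) were not. Within title prefix 3 alone MMP13 was called (adjusted p = 0.0293). MMP9 was over log2 5 in fewer than 3 lines and passed the filter only with the tissues.

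Metastatic lines were set against primary lines next. None of the 16 chains was called in limma, where 0.0127% of all genes (1 of 7849) passed, and 2 chains had an unadjusted p under 0.05, against 6.79% of all genes. Both belong to type VI collagen, and both were lower in metastatic lines on average. COL6A1 stood at 4.15, 11.67 and 10.60 in metastatic lines 1 to 3, against 8.81 to 12.69 (median 11.42) in primary lines. Line 1 was thus below every primary line, and lines 2 and 3 were inside the range. The difference was -2.33 (SE 0.87, unadjusted p = 0.0114, adjusted p = 0.576), it was -2.13 within title prefix 2, and without metastatic line 1 it was 0.00. It was -3.76 (adjusted p = 0.0738) without metastatic line 2 and -3.22 (adjusted p = 0.538) without metastatic line 3.

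COL6A3 stood at 3.30, 10.86 and 3.80 in metastatic lines 1 to 3, against 2.17 to 12.66 (median 10.84) in primary lines. It was under log2 5 in 2 of 3 metastatic and 2 of 24 primary lines, the latter being line 6 (2.82) and line 7 (2.17). The difference was -4.02 (SE 1.63, unadjusted p = 0.0191, adjusted p = 0.634), and it was -6.46 without metastatic line 2 (adjusted p = 0.124). It was -2.68 (unadjusted p = 0.178) without metastatic line 1 and -2.93 (unadjusted p = 0.145) without metastatic line 3. Metastatic line 1 thus lacked signal over log2 5 for both measured type VI chains, whereas metastatic line 3 and primary lines 6 and 7 kept COL6A1 at 10.60, 9.33 and 8.81.

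On 1 further probe set of each chain these lines were low too, though for COL6A3 not these alone. A further COL6A1 probe set stood at 1.74 in metastatic line 1 and 9.96 in metastatic line 2, with a primary line median of 8.84. A further COL6A3 probe set stood at 2.45 and 2.33 in metastatic lines 1 and 3, and at 2.56 and 2.25 in primary lines 6 and 7, with a primary line median of 6.14. It was over log2 5 in only 17 of 24 primary lines, and line 4 stood at 2.76. The last kept COL6A3 probe set was dim, over log2 5 in 3 primary lines. It stood at 2.72, 3.23 and 2.36 in metastatic lines 1 to 3, and primary line 4 was the lowest primary line on it (2.46). COL6A2, the remaining chain of the classical type VI heterotrimer, has no probe set of a single symbol here.

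Metastatic line 1 differed from the others in further measures. SERPINH1 stood at 4.59 there, against 9.85 and 10.01 in metastatic lines 2 and 3 and 8.28 to 11.35 in primary lines, while COL1A1 stood at 13.53. The mean of the 2 measured epithelial markers was 12.43 in metastatic line 1 and at most 8.24 in primary lines, and its actin 3′ minus 5′ difference was 3.95. The part of either in the type VI values was not tested.

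The 14 other chains gave metastatic minus primary differences with unadjusted p over 0.05, from -0.56 for COL5A1 to 0.60 for COL16A1 and COL14A1. The 95% interval was -0.71 to 0.42 for COL1A1 and -1.64 to 2.43 for COL4A1, so the precision differed widely between chains. In tissues against metastatic lines, which share the tissues with the comparison above, 2 of 16 chains were called, where 7.5% of all genes passed and 4.57% were higher in tissues. These were COL2A1 (2.81, SE 0.56, adjusted p = 9.71e-04) and COL13A1 (3.45, SE 0.71, adjusted p = 0.0014). Neither was over log2 5 in any metastatic line, and both passed the filter only with the tissues. They had to differ to be measured, so this count too is a description. No tissue shared a title prefix with a metastatic line, and these 2 calls are given without prefix in the model. Without metastatic line 2 COL6A1 was called too (3.71, adjusted p = 0.031). With all metastatic lines COL6A1 gave 2.28 (adjusted p = 0.166), and 2.32 (adjusted p = 0.418) with prefix in the model.

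Across the 24 primary lines the chains differed widely in spread. The SD was 0.49 for COL1A1, 0.64 for COL5A2 and 0.70 for COL1A2, and 1.64 for COL4A2, 1.69 for COL14A1, 1.81 for COL4A1 and 2.78 for COL6A3. The spread depended on the probe set: on other kept probe sets the SD was 1.31 and 1.49 for COL1A1 and up to 1.66 for COL1A2. Part of the spread of the fibrillar chains came from primary line 4, which was the lowest of 24 in 6 of 16 chains. It had COL1A1 at 11.88, COL1A2 at 11.13, COL3A1 at 11.24, COL5A1 at 7.75, COL5A2 at 12.21 and COL12A1 at 9.21, the last a FACIT chain. These values lay from 1.62 (COL5A2) to 4.96 (COL5A1) below the median of the other 23 lines.

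Without line 4 the SD fell from 0.70 to 0.19 for COL1A2 and from 1.16 to 0.62 for COL5A1. On the other COL1A1 probe sets line 4 stood at 8.01 and 6.09, against medians of 13.45 and 12.75, a wider gap than on the brightest probe set. Its COL4A1 stood at 12.44, above the median of 11.10 of the other lines. As given above, PECAM1 and EMCN stood at 13.88 in this line, while VWF and TIE1 were under log2 5 in every primary line. No tissue or metastatic call of a chain changed when line 4 was left out.

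Chains that assemble together, or whose genes are neighbours, were then compared across the 24 primary lines, and 5 of 15 listed pairs could be measured. COL4A1 and COL4A2, which form the common type IV heterotrimer and are adjacent genes in the UU_Cfam_GSD_1.0 annotation, correlated at r = 0.97 (Spearman rho = 0.94, permutation p = 1e-05 for each, the smallest that 100000 draws can give, adjusted 1.67e-05; n = 24). The value was 0.96 without lines 2 and 25, the farthest from the COL4A1 median, and 0.97 within title prefix 2. Their levels spanned a wide range, from COL4A1 at 6.79 and COL4A2 at 6.75 in line 2 to 12.46 and 12.76 in line 24, with line 15 higher still.

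COL3A1 and COL5A2, of types III and V and also adjacent genes, correlated at r = 0.84 (rho = 0.85, permutation p = 1e-05 for each, adjusted 1.67e-05), at 0.92 without lines 4 and 19 and at 0.96 within title prefix 2. COL6A1 and COL6A3, on different chromosomes, correlated at r = 0.86 (rho = 0.85, permutation p = 1e-05 for each, adjusted 1.67e-05), at 0.76 without lines 6 and 7 and at 0.78 within title prefix 2. COL5A1 and COL5A2, also on different chromosomes, gave r = 0.68 (rho = 0.70, permutation p = 5e-05 and 0.00013, adjusted 6.25e-05 and 0.000163), 0.54 without lines 4 and 19 and 0.68 within title prefix 2.

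COL1A1 and COL1A2, the chains of type I collagen, gave r = 0.80 (rho = 0.51, permutation p = 0.0037 and 0.0128, adjusted 0.0037 and 0.0128). The value was 0.60 without lines 4 and 21 (adjusted p = 0.00424), 0.29 without line 4 alone (adjusted p = 0.137) and 0.10 within title prefix 2 (adjusted p = 0.662), so r moved with line 4 and with the lines included. Over all 78 pairs of the 13 chains that were over log2 5 in at least 12 lines the median r was 0.38, with the lowest at -0.32 (COL4A1 and COL6A1), given as a description over 24 lines that share the array platform.

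**Figure D5:**
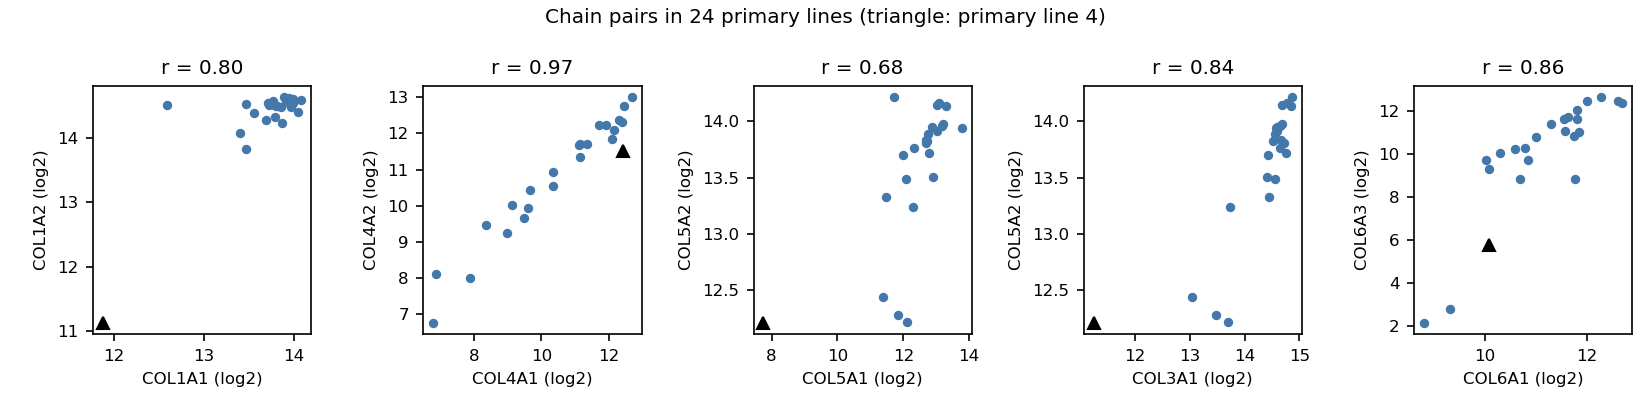
Log2 intensity of 5 chain pairs in 24 primary lines, 1 point per line, with primary line 4 as a triangle and Pearson r above each panel. COL4A1 and COL4A2 follow a line over about the whole range, and in the panel of COL1A1 and COL1A2 line 4 lies far from the other lines.

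Dogs 22 and 23 gave a line and a tissue each, which allowed a look within the animal, with no test. In these dogs alike 8 of 16 chains were higher in the tissue, 4 were lower and 4 went opposite ways. COL2A1 was higher in the tissue by 2.85 and 2.17, COL13A1 by 3.30 and 6.21, and COL12A1 lower (-0.78 and -3.80), while COL14A1 gave 2.98 and -0.52. Both line arrays of dog 22, of different title prefixes, differed by a median of 0.89 over the chains and by up to 2.15 (COL6A1), which is the measured difference between arrays of 1 dog.

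Breed and survival labels were tested in the primary lines. In a model with sex, 10 lines of Rottweilers were set against 7 of Golden Retrievers, and 0 of 16 chains were called in limma, where 0.0255% of all genes passed, and 4 had an unadjusted p under 0.05, against 10.9% of all genes. COL4A1 ran from 6.79 to 11.93 (median 9.04) in Rottweiler and from 10.35 to 12.30 (median 11.70) in Golden Retriever lines, so the groups overlapped (difference -2.44, SE 0.69, unadjusted p = 0.00251, adjusted p = 0.312). COL4A2 gave -2.07 (adjusted p = 0.329), COL12A1 -1.44 (adjusted p = 0.312) and COL14A1 -1.33 (adjusted p = 0.332). Within title prefix 2 COL4A1 gave -1.89 (unadjusted p = 0.0239, adjusted p = 0.44) and COL12A1 -1.42 (unadjusted p = 0.0204), while COL4A2 at -1.30 (unadjusted p = 0.0669) and COL14A1 at -0.93 (unadjusted p = 0.0725) no longer had an unadjusted p under 0.05.

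In the 11 lines of dogs labelled SOC, 0 of 16 chains followed log2 of the survival label (0% of all genes passed in limma, and 4.89% had an unadjusted p under 0.05). Of the chains 1 had an unadjusted p under 0.05, COL6A3, with a slope of -0.63 per doubling of the survival label (SE 0.24, unadjusted p = 0.0222, adjusted p = 0.906). The sources used here give no unit of survival, and no label of censoring was used.

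The 20 chains without a kept probe set included COL8A2, COL9A1, COL11A2, COL4A3 to COL4A6 and COL17A1. In 15 of them no probe set exceeded log2 5 on any array. The other 5 exceeded it on 1 or 2 arrays. COL5A3 stood at 5.87 and 5.56 in tissues 1 and 2, COL7A1, the anchoring fibril chain, at 6.04 in tissue 2, COL21A1 at 5.95 in tissue 6 and COL24A1 at 5.51 in tissue 3, each with every primary line under log2 5. COL10A1, a network chain of hypertrophic cartilage, exceeded it on 1 line array and stood at 3.60 to 4.64 in tissues.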

How the data were processed

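The deposited file gave an intensity for each probe set on each array. Per the submitters' processing notes it came from GCRMA, whose version and settings no source used here gives. The deposited intensity was linear, so log2 was taken here (no value fell below 1). Of 43035 probe sets 111 controls were left out, 29254 had 1 symbol in the platform annotation, 439 several and 13231 were not listed. The kept probe set (over log2 5 on at least 3 arrays) with the highest mean stood for each gene. The comparisons of tissues, primary and metastatic lines shared 1 limma fit, and breed and survival had limma fits of their own in primary lines (lmFit, eBayes; limma 3.58.1, R 4.3.3), with p-values adjusted by Benjamini-Hochberg over 7849 genes. Calls needed an adjusted p under 0.05 and, against tissues, 2-fold. Arrays have no read depth, so their number limits precision. In data simulated for tissues against primary lines 38.8%, 85.1% and 98.5% of genes changed by log2 1, 2 and 4 were called. For metastatic lines 23.9%, 62.7% and 90.9% were. Among the called chains COL2A1, COL13A1 and COL14A1 had a larger SD in tissues than in primary lines. COL16A1 had a smaller one (0.88 in tissues and 1.01 in primary lines). Whether these rates of calls hold where the groups differ in spread was not tested.

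The members, gene lists, assembly classes and tests were chosen with earlier results of these data known. Chains called in a group comparison, and COL1A1, COL1A2 and COL3A1, have full statistics; pathway genes named are those called, plus SERPINH1, P4HA1, LOX, DDR2 and ITGB1; markers named are the 3 of each list with the largest difference. HAPLN1 and SOX9 fall under that rule. CTSK, and the counts over log2 5 of all 7 osteoblast genes, lie outside it and were added with their values in view. The endothelial, pericyte, macrophage, cartilage, osteoblast, epithelial and adipocyte lists are marker lists of cell types. Some of their genes, such as DLX5 of the osteoblast list, were also over log2 5 in many tumour lines. The lists therefore do not mark only cells other than tumour cells. The pairing of line and tissue comes from the labels of dogs 22 and 23. A dog block gave a consensus correlation of -0.03. Alternatives covered the filter, normalization, probe set choice, title prefix, array weights, line 4, lines 5 and 9, and each replicate left out.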

Additional observations from a re-analysis of the deposited data

Results flagged for a closer look

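The 6 tissue values were checked for 1 value far from the rest on 45 collagen probe sets with a tissue over log2 5. The check marked 4. Chance marks about 1 in 20 of unselected, independent sets. Here some probe sets entered only through the value that was marked, and many share a gene, so the count cannot be set against that rate. On 1 COL14A1 probe set tissue 6 was the lowest, at 4.46. On the COL24A1 probe set tissue 3 was the highest, at 5.51. On 2 COL27A1 probe sets tissue 2 was the highest, at 13.53 and 11.77. Both COL27A1 probe sets were removed by the filter and entered no comparison of groups.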

How the results depend on the processing

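The count of 4 chains called between tissues and primary lines fell to 1 with title prefix as a covariate (COL2A1) and to 0 within title prefix 3, and was 4 to 5 without each tissue in turn, COL27A1 being added without tissue 4 or 5. The count of 2 against metastatic lines was 1 with a filter at log2 7 and with quantile normalization, where COL2A1 was not tested because it no longer passed the filter. Pathway calls numbered 9 and, with title prefix as a covariate, 4, of which 3 were among the 9. With title prefix as a covariate and within title prefix 3 the basement membrane median was -0.34 and the fibrillar median 0.71. The fibrillar median was 0.87 when the most variable probe set stood for a gene and 0.58 with the mean of all kept probe sets. With no filter, which adds dim chains to each class, the medians were 0.11 for FACIT, -0.11 for basement membrane and 0.018 for transmembrane chains. With no filter another COL2A1 probe set, of higher mean but at most 3.44 on any array, stood for the gene. It turned the sign: -0.17 (adjusted p = 0.193) against primary and -0.25 (adjusted p = 0.354) against metastatic lines. In that setting 6 of 36 chains were called (8.94% of all genes), COL5A3, COL7A1 and COL21A1 among them. For COL1A1 and COL1A2 r was 0.10 within title prefix 2 and 0.29 without line 4. With the dog as a replicate block the chain counts were 4 and 2, and no call changed. The cause of the other shifts was not tested. The main limits are 3 metastatic lines, 6 tissues that share a title prefix with only 2 line arrays, and chains near background in lines.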
